A study of Capra aegagrus with 10 samples.

Results

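The miR-125 family of goat mammary gland cells was followed across 10 small RNA libraries. Its members were taken as all rows of the deposited table named chi-miR-125a or chi-miR-125b with any arm suffix, which gave 4 of the 369 known miRNAs listed, and 4 of 1403 when predicted miRNAs are included: chi-miR-125a-5p, chi-miR-125a-3p, chi-miR-125b-5p and chi-miR-125b-3p, written below without the species prefix. Their sequences are not shown, as none of the sources used here holds them. The cells came from the mammary gland of the Lanshan dairy goat and were grown in 3D culture. Groups of 2 libraries each comprised cells given a virus carrying the long noncoding RNA lncRNA55666 for overexpression (OV55666), Lv5NC, cells given a virus that lowers lncRNA55666 (KD553), Lv3NC, and Blank. The series lists Lv5NC beside the overexpression and Lv3NC beside the knockdown without spelling out the names, and they are read here as the control viruses of these. For Blank no virus is named. The virus promoters and the origin of the cells are not described. All libraries share breed, tissue and culture. The labels do not say whether the libraries of a group came from separate cultures or animals, so p-values measure only the spread between these libraries, which may be technical. The level of lncRNA55666 itself was not analysed here, and how strongly it was raised or lowered is therefore unknown.

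miR-125 is the mammalian relative of lin-4 of the worm Caenorhabditis elegans, a regulator of developmental timing. Each precursor hairpin gives a 5p strand, which is the guide that is loaded into Argonaute and directs repression, and a 3p passenger strand, most of which is degraded. The guides of miR-125a and miR-125b share their seed and so are expected to recognise overlapping sets of messenger RNAs. Among their known targets in human breast cancer cells are the growth factor receptors ERBB2 and ERBB3. In mammals miR-125a is transcribed in a cluster with miR-99b and let-7e, and miR-125b lies in a pair of clusters, one with miR-100 and let-7a and the other with miR-99a and let-7c.

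The table held 19174206 to 25445687 reads per library, of which 3108495 (Lv5NC replicate 1) to 8739602 (Blank replicate 2) lay on known or predicted miRNAs. Levels are given as CPM, the count scaled to 1000000 miRNA reads, after TMM scaling (trimmed mean of M values, which sets libraries on a common scale), so that 1 CPM stood for 3.11 to 8.74 reads before scaling, and group values as mean ± SD. CPM has no length term. Mature miRNAs are of nearly equal length, but differences in how readily strands are ligated and amplified were not corrected. Reads on the epithelial markers chosen here were scarce: 8 of the 9 were listed, with miR-205 not among the listed rows, and each of these 8 averaged under 10 CPM. Their sum was 9.73 to 74.2 CPM. The 9 rows of the stromal markers miR-143, miR-145, miR-199a, miR-199b and miR-214 summed to 10234 to 23288 CPM. Of the 5 blood markers 4 were listed, with summed levels of 198 to 1847 CPM, and the endothelial marker miR-126 stood at 27.0 to 101 CPM over its arms. Means under 10 CPM were also held by 2 of the 9 stromal rows, 3 of the 6 blood rows and 1 of the 2 rows of miR-126.

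The guide strands were abundant and the passenger strands were not. miR-125b-5p averaged 10318 ± 4223 CPM (SD, n = 10), which placed it 18th of the 369 known miRNAs, and miR-125a-5p averaged 10109 ± 3388 CPM, in place 19. miR-125b-3p averaged 154 ± 80.1 CPM and miR-125a-3p 64.8 ± 23.6 CPM. The 4 members together held 2.05 ± 0.468% of the miRNA reads. All 4 had reads in every library, from 123 to 112793, and all 4 passed the filter of 5 CPM in at least 2 libraries that 444 miRNAs passed.

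miR-125a-5p had 10709 and 15880 CPM in the OV55666 libraries, 5231 and 7836 CPM in Lv5NC, 9536 and 12226 CPM in KD553, 10135 and 13950 CPM in Lv3NC, and 5514 and 10070.1 CPM in Blank. Its group means were, highest first, OV55666, Lv3NC, KD553, Blank and Lv5NC, and every neighbouring pair in this order overlapped. Of the 10 pairs of groups 5 did not overlap: OV55666 and Lv3NC each lay above Lv5NC and Blank, and KD553 above Lv5NC. The control viruses thus stood apart from each other, while OV55666 overlapped Lv3NC and KD553. The share of all miRNAs without overlap is given below for the pairs tested and was not counted for the others.

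miR-125b-5p had 7245 and 5590.3 CPM in OV55666, 6865 and 18521 CPM in Lv5NC, 14341 and 7904 CPM in KD553, 12329 and 13891 CPM in Lv3NC, and 7220 and 9275 CPM in Blank. Lv3NC (13110 ± 1105 CPM) and Lv5NC (12693 ± 8242 CPM) had the highest means, followed by KD553, Blank and OV55666, and again every neighbouring pair overlapped. Among the 10 pairs of groups 3 did not overlap, with OV55666 below KD553 and Lv3NC, and Lv3NC above Blank. The mean of Lv5NC rested on its replicate 2, which held the highest level of this guide in any library, whereas its replicate 1 lay among the lowest.

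miR-125a-3p, the passenger of miR-125a, had 106 and 30.5 CPM in OV55666, 80.1 and 84.6 CPM in Lv5NC, 55.1 and 31.2 CPM in KD553, 63.6 and 57.4 CPM in Lv3NC, and 80.2 and 60.0 CPM in Blank. The OV55666 libraries were thus the highest and the lowest of all 10. In the order of means, Lv5NC, Blank, OV55666, Lv3NC and KD553, only the last neighbours did not overlap. Without overlap were 4 of the 10 pairs of groups, Lv5NC lying above KD553 and Lv3NC, and KD553 below Lv3NC and Blank.

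miR-125b-3p, the passenger of miR-125b, had 135 and 90.0 CPM in OV55666, 172 and 220 CPM in Lv5NC, 232 and 40.9 CPM in KD553, 111 and 47.3 CPM in Lv3NC, and 229 and 259 CPM in Blank. Its order of means was Blank, Lv5NC, KD553, OV55666 and Lv3NC, and only Blank and Lv5NC among the neighbours did not overlap. Over all 10 pairs of groups, 5 did not overlap: Blank above Lv5NC, OV55666 and Lv3NC, and Lv5NC above OV55666 and Lv3NC. The KD553 libraries lay near opposite ends of the range.

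**Figure D1:**
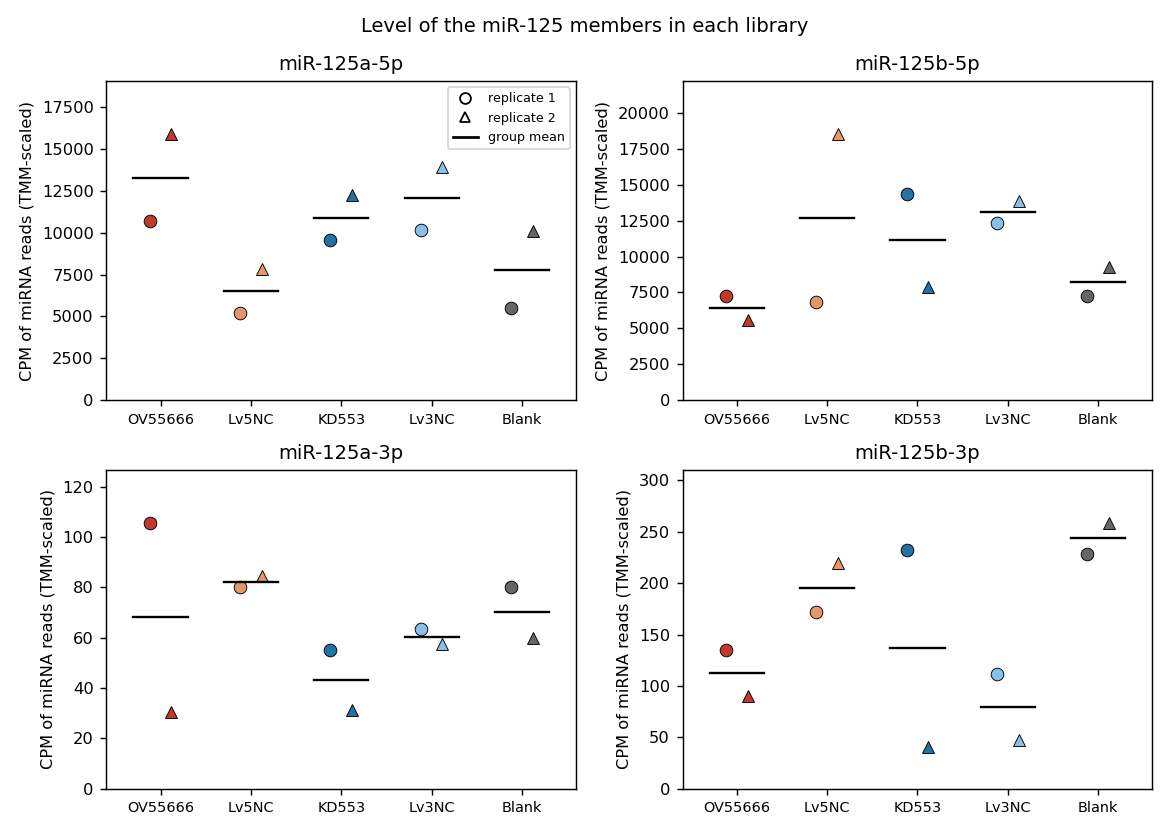
Level of each miR-125 member in CPM of miRNA reads (TMM-scaled, axes from 0) in the 5 groups. Each point is 1 library and each horizontal line the mean of 2. miR-125a-5p was highest in OV55666 (13294 ± 3656 CPM) and lowest in Lv5NC (6533 ± 1842 CPM), and the 2 libraries of Lv5NC stood far apart for miR-125b-5p.

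Overexpression against its control virus asked whether the family follows more lncRNA55666. miR-125a-5p averaged 13294 ± 3656 CPM in OV55666 and 6533 ± 1842 CPM in Lv5NC (SD, n = 2 each), and both OV55666 libraries lay above both Lv5NC libraries. The log2 fold change of CPM + 1 was 1.03 (SE 0.45, 95% interval 0.0082 to 2.04), with an unadjusted p of 0.0485 and an adjusted p of 0.541 by limma with Benjamini-Hochberg adjustment, so the difference did not pass the threshold of 0.05. The value was 0.88 to 1.17 under the other scalings and 0.70 to 1.32 with a library left out. As the groups did not overlap, leaving out a library could scarcely turn its sign, so the constant sign is no further support. The unadjusted p by limma did not stay under 0.05 in the other scalings. It was 0.0512 with median-of-ratios scaling, 0.0802 without TMM and 0.172 with scaling to all reads in the table. Blank stood at 7792 ± 3221 CPM.

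miR-125b-5p, the other guide, averaged 6417 ± 1170 CPM in OV55666 and 12693 ± 8242 CPM in Lv5NC, that is -0.83 on the log2 scale (SE 0.52), and limma gave an adjusted p of 0.707. The groups overlapped, and the value was -0.11 without Lv5NC replicate 2 and -1.57 without Lv5NC replicate 1. miR-125b-3p averaged 113 ± 31.9 CPM in OV55666 and 196 ± 33.5 CPM in Lv5NC, and both OV55666 libraries lay below both Lv5NC libraries (log2 fold change -0.81, SE 0.77, adjusted p = 0.817 by limma). For miR-125a-3p the means were 68.1 ± 53.1 and 82.3 ± 3.13 CPM in OV55666 and Lv5NC (log2 fold change -0.52, adjusted p = 0.862 by limma). Without OV55666 replicate 2 this value was 0.47.

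Of the 4 members, limma called 0 in this comparison, 1 had an unadjusted p under 0.05 (miR-125a-5p), and limma with voom weights also called 0 with 1 at an unadjusted p under 0.05. Over all 444 miRNAs tested, 0.225% were called (1 miRNA), 8.78% had an unadjusted p under 0.05, 18.7% had both OV55666 libraries above both Lv5NC libraries and 27.9% had both below. The median log2 fold change was -0.67 over the members, 0.12 over the tested known miRNAs and -0.10 over all tested miRNAs, predicted ones included. The library features also differed between these groups. RF identifiers, which the table lists without names, took 11.97% and 13.7% of reads in OV55666 and 4.81% and 7.72% in Lv5NC. With that share as a covariate miR-125a-5p was 0.84 (SE 0.56, unadjusted p = 0.164 by limma), and miR-125b-3p was 0.51 in place of -0.81. The summed stromal markers were 14892 and 14268 CPM in OV55666 and 18599.6 and 23288 CPM in Lv5NC, and the summed epithelial markers 10.4 and 25.8 CPM in OV55666 and 11.6 and 10.5 CPM in Lv5NC. Their part in the values of the members was not tested. In cell populations, fewer cells of a type and less of a miRNA per cell cannot be told apart.

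Knockdown against its control virus asked the converse. miR-125a-5p averaged 10881 ± 1902 CPM in KD553 and 12042 ± 2697 CPM in Lv3NC, a log2 fold change of -0.14 with a 95% interval of -1.16 to 0.88 (adjusted p = 0.935 by limma). It was 0.068 when CPM were left without TMM factors. miR-125b-5p averaged 11123 ± 4551 CPM in KD553 and 13110 ± 1105 CPM in Lv3NC (log2 fold change -0.30, 95% interval -1.47 to 0.88). This value was -0.67 to -0.091 under the other scalings and -0.0060 with the share of reads on RF identifiers as a covariate. Both guides thus overlapped between the groups, and the lower ends of their intervals, -1.16 and -1.47, do not exclude a difference as large as that of miR-125a-5p in the overexpression comparison.

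Of the passengers, miR-125a-3p stood at 43.2 ± 16.9 CPM in KD553 and 60.5 ± 4.35 CPM in Lv3NC, with both KD553 libraries below both Lv3NC libraries (log2 fold change -0.53, SE 0.63, adjusted p = 0.734 by limma). The value was -0.048 without KD553 replicate 2 and -0.060 with the share of reads on RF identifiers as a covariate. miR-125b-3p stood at 137 ± 135 CPM in KD553 and 79.3 ± 45.2 CPM in Lv3NC (log2 fold change 0.42, SE 0.77). It was -0.71 without KD553 replicate 1 and 1.75 without KD553 replicate 2, so its sign depended on the library left out. RF identifiers took 16.2% and 26.3% of reads in KD553 and 11.2% and 15.98% in Lv3NC. With that share as a covariate miR-125b-3p was 1.96 (SE 0.70, unadjusted p = 0.0192 and adjusted p = 0.9998 by limma). The part of this share in the results was not tested further. Without the covariate, limma called 0 of the 4 members, with 0 at an unadjusted p under 0.05, and limma with voom weights gave 0 and 0. Over all 444 miRNAs, limma called 0%, 9.01% had an unadjusted p under 0.05, 12.8% had both KD553 libraries above both Lv3NC libraries and 19.8% had both below. The median log2 fold change was -0.22 over the members, 0.089 over the tested known miRNAs and -0.32 over all tested miRNAs.

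The difference between the overexpression effect and the knockdown effect was tested in the same fit. For miR-125a-5p it was 1.17 (SE 0.64, 95% interval -0.27 to 2.61, adjusted p = 0.796 by limma), with 0.81 to 1.68 under the other scalings. For miR-125b-5p it was -0.53 (SE 0.74), for miR-125b-3p -1.24 (SE 1.09) and for miR-125a-3p 0.0064 (SE 0.90), a value whose sign differed between scalings. Under the other scalings the difference was -0.88 to -0.0095 for miR-125b-5p and -1.59 to -0.74 for miR-125b-3p. That of miR-125b-3p was -0.042 without KD553 replicate 1 and -2.44 without KD553 replicate 2. limma called 0 of the 4 members with 0 at an unadjusted p under 0.05, as did limma with voom weights, against 0.225% called and 5.86% at an unadjusted p under 0.05 over all 444.

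The control viruses were set against Blank, which asked what accompanies the virus alone. These comparisons share the control libraries with those above. In Lv5NC against Blank, miR-125a-5p averaged 6533 ± 1842 and 7792 ± 3221 CPM (log2 fold change -0.22, SE 0.45) and miR-125b-5p 12693 ± 8242 and 8247 ± 1453 CPM (0.46, SE 0.52, and -0.035 when scaled to all reads in the table). miR-125a-3p was 0.24 and likewise turned to -0.24 under that scaling. miR-125b-3p averaged 196 ± 33.5 CPM in Lv5NC and 244 ± 21.1 CPM in Blank (-0.32, SE 0.77), with both Lv5NC libraries below both Blank libraries, as for 19.4% of the 444 miRNAs, while 26.4% had both above. RF identifiers took 4.81% and 7.72% of reads in Lv5NC and 15.4% and 10.7% in Blank, and with that share as a covariate the value was -1.69 (SE 0.67, unadjusted p = 0.0305 and adjusted p = 0.908 by limma). The part of the RF share in this result was not tested further. The adjusted p of the members was 0.841 to 0.913 by limma. Without the covariate, limma called 0 of the 4 members and 0% of all 444. An unadjusted p under 0.05 was held by 0 of 4 members and 6.76% of all, and limma with voom weights called 0 of 4.

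In Lv3NC against Blank the strands of miR-125b stood on opposite sides. miR-125b-3p averaged 79.3 ± 45.2 CPM in Lv3NC and 244 ± 21.1 CPM in Blank, with both Lv3NC libraries below both Blank libraries (log2 fold change -1.73, SE 0.77, 95% interval -3.46 to -0.0043). Its unadjusted p was 0.0495 and its adjusted p 0.759 by limma, so it did not pass. The summed stromal markers were likewise lower in both Lv3NC libraries (16119 and 12105 CPM) than in both Blank libraries (20276 and 21097 CPM), and their part in the result was not tested. The log2 fold change of miR-125b-3p was -1.10 without Lv3NC replicate 2 and -2.32 without Lv3NC replicate 1. miR-125b-5p averaged 13110 ± 1105 CPM in Lv3NC and 8247 ± 1453 CPM in Blank, with both Lv3NC libraries above both Blank libraries (0.68, SE 0.52, adjusted p = 0.868 by limma). miR-125a-5p gave nearly the same value (0.67, SE 0.45), also without overlap, and miR-125a-3p was -0.20 (SE 0.63). The values of both guides were 0.20 to 0.72 under the other scalings. limma called 0 of the 4 members, with 1 at an unadjusted p under 0.05, and limma with voom weights gave the same counts. Over all 444 miRNAs 0.225% were called, 4.95% had an unadjusted p under 0.05, 17.1% had both Lv3NC libraries above both Blank libraries and 16.4% had both below.

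**Figure D2:**
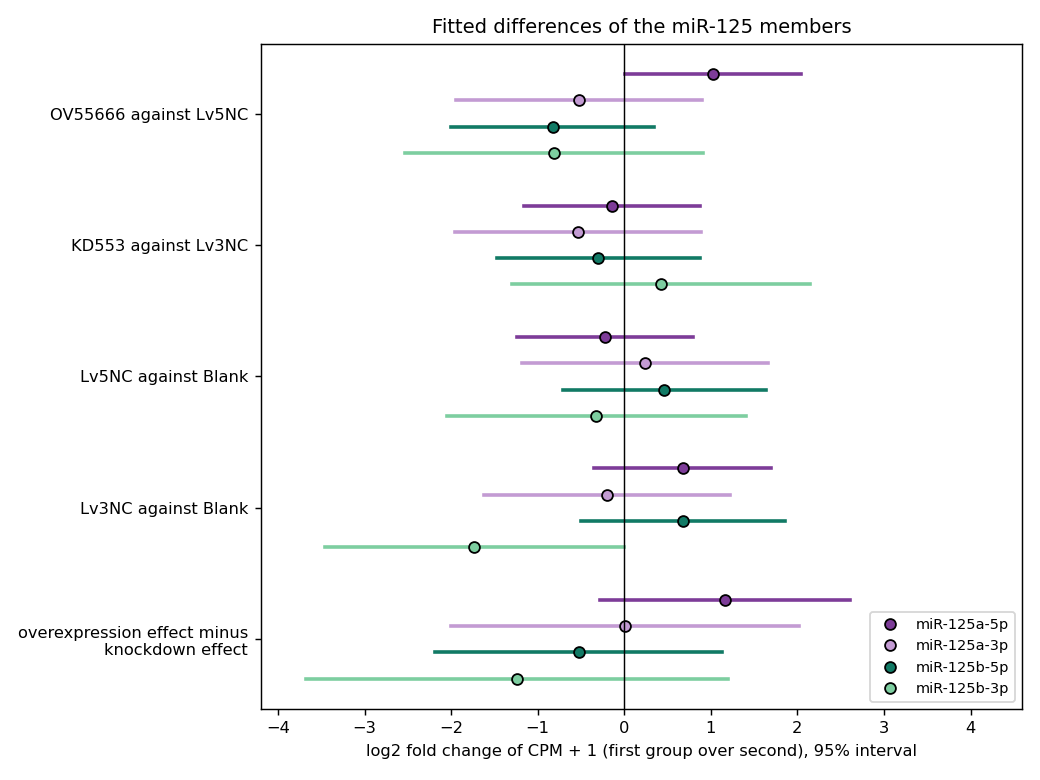
Fitted log2 fold change of CPM + 1 (x axis) of the 4 members in the 5 comparisons, with 95% intervals from limma; values above 0 mean higher in the first group named. The intervals of miR-125a-5p in OV55666 against Lv5NC (0.0082 to 2.04) and of miR-125b-3p in Lv3NC against Blank (-3.46 to -0.0043) end close to 0 and the others include it.

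Ratios within a library do not depend on the scaling. miR-125a-5p made up 59.6% and 74.0% of the reads of the 2 guides in OV55666, 43.2% and 29.7% in Lv5NC, 39.9% and 60.7% in KD553, 45.1% and 50.1% in Lv3NC, and 43.3% and 52.1% in Blank. The exact (Clopper-Pearson) 95% intervals, which cover counting error only, reached at most from 42.8% to 43.7% (Lv5NC replicate 1), so the spread between libraries was far larger than the counting error. miR-125a-5p was the more frequent guide in both OV55666 libraries, and the less frequent one in both Lv5NC libraries. Its ratio to miR-125b-5p averaged 2.16 ± 0.963 in OV55666 and 0.593 ± 0.240 in Lv5NC, 3.61-fold apart on the log scale. The exact permutation test, two-sided, gave p = 0.33, the smallest that 2 libraries against 2 allow. The ratios of KD553 (1.11 ± 0.624) and Lv3NC (0.913 ± 0.129) overlapped, with p = 1 by the exact permutation test, and Blank stood at 0.925 ± 0.228. Both Blank libraries lay below both OV55666 libraries and above both Lv5NC libraries, the latter barely (0.764 in Blank replicate 1, 0.762 in Lv5NC replicate 1). How often ratios of other miRNAs lie apart in this way was not counted. The summed level of the guides overlapped between OV55666 (19712 ± 2486 CPM) and Lv5NC (19226 ± 10084 CPM).

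The arms kept no fixed proportion. The reads of miR-125a-5p over those of miR-125a-3p were 101 and 521 in OV55666, 65.3 and 92.7 in Lv5NC, 173 and 391 in KD553, 159 and 243 in Lv3NC, and 68.8 and 168 in Blank. OV55666 lay above Lv5NC in both libraries (exact permutation p = 0.33, two-sided), while the other pairs compared overlapped. For miR-125b the ratio was 53.6 and 62.1 in OV55666, 39.9 and 84.4 in Lv5NC, 61.7 and 193 in KD553, 111 and 293 in Lv3NC, and 31.5 and 35.9 in Blank. Here both Blank libraries had the lowest ratios of all 10, and Lv3NC stood 5.36-fold above Blank (exact permutation p = 0.33). The 3p arm of miR-125a rested on as few as 123 reads in a library and that of miR-125b on as few as 161.

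**Figure D3:**
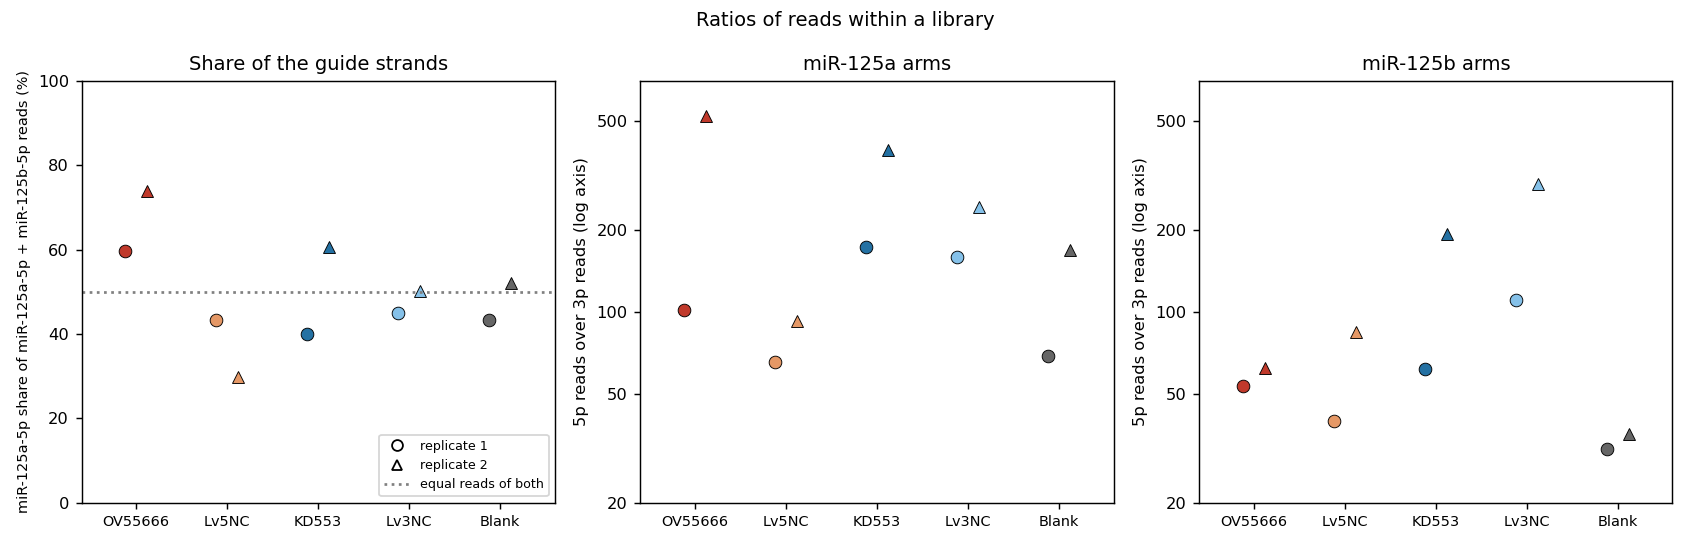
Share of miR-125a-5p among the reads of both guides (left, percent) and reads of the 5p arm over the 3p arm of miR-125a and miR-125b (middle and right, log axes) in each library of the 5 groups. The OV55666 libraries held the share at 59.6% and 74.0%, above both Lv5NC libraries, and the Blank libraries had the lowest arm ratios of miR-125b.

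The guides did not move together. Across the 10 libraries, which share their scaling and span 5 groups, Pearson's r of log2 values was 0.020 between miR-125a-5p and miR-125b-5p, given here as a description. Each guide also differed from its own passenger, with r of -0.64 for miR-125a and 0.13 for miR-125b. Between the passengers r was 0.59, which took place 22 among 173 tested miRNAs for miR-125a-3p and place 29 for miR-125b-3p. With the share of reads on RF identifiers, r was -0.64 for miR-125a-3p and -0.62 for miR-125b-3p. It was 0.48 for miR-125a-5p and -0.10 for miR-125b-5p. The part of this share in the likeness of the passengers was not tested. Among 173 tested miRNAs of at least 50 CPM, the level of miR-125a-5p was most like that of miR-34a (r = 0.94), a miRNA induced by p53 in human and mouse cells. This miRNA had 7615 and 8444 CPM in OV55666, 4911 and 6526 CPM in Lv5NC, 8035 and 7811 CPM in KD553, 7061 and 8912 CPM in Lv3NC, and 5587 and 6908 CPM in Blank. It was followed by the predicted novel_mir3 (0.84), let-7d-3p (0.79), miR-30a-5p (0.79) and miR-328-3p (0.75). The last of these was listed with 10115 to 91633 reads in the OV55666, KD553 and Lv3NC libraries and with 2 to 10 in the Lv5NC and Blank libraries. The least alike were novel_mir1102 (-0.79), miR-204-3p (-0.74) and novel_mir17 (-0.73).

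**Figure D4:**
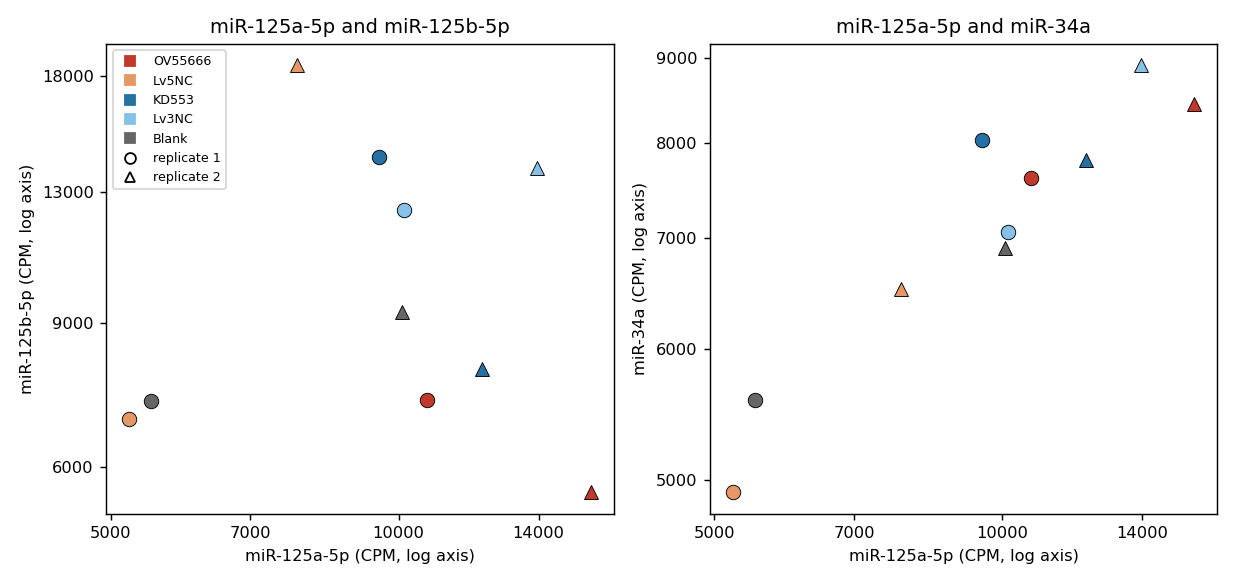
Level of miR-125b-5p (left) and of miR-34a (right) against that of miR-125a-5p in CPM on log axes, 1 point per library. The points of miR-34a follow miR-125a-5p (r = 0.94) and those of miR-125b-5p do not (r = 0.020).

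The miRNAs of the same clusters were read as lists, chosen like the members with earlier results of these data known. The miR-125a cluster gave 4 further strands, all tested. They are both arms of let-7e and of miR-99b, so counts over them do not rest on 4 separate miRNAs. let-7e-5p and miR-99b-5p are guides, miR-99b-5p being far more abundant (44121 ± 13834 CPM, n = 10) than miR-125a-5p. In OV55666 against Lv5NC all 4 had higher values (median 0.31) and in KD553 against Lv3NC all 4 had lower values (median -0.67), with 0 called by limma in either comparison. The medians over the tested known miRNAs were 0.12 and 0.089, and those over all tested miRNAs -0.10 and -0.32. Of all 444 tested miRNAs, 204 had higher values in the former comparison and 275 had lower values in the latter. miR-99b-5p averaged 31040 ± 601 CPM in KD553 and 59526 ± 17048 CPM in Lv3NC (log2 fold change -0.91, SE 0.43, adjusted p = 0.586 by limma), and its passenger miR-99b-3p had a like value (-0.88). let-7e-3p was listed with 2 reads in Lv5NC replicate 1 and with 950 to 3273 in the other libraries, and its value in OV55666 against Lv5NC was 4.15 (95% interval -0.36 to 8.66). The guide let-7e-5p was 0.013 in the same comparison, with 2216 ± 828 CPM in OV55666 and 2121 ± 166 CPM in Lv5NC.

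Within a library, miR-125a-5p exceeded let-7e-5p 3.82-fold and 9.74-fold in OV55666, 2.61-fold and 3.50-fold in Lv5NC, 3.97-fold and 6.88-fold in KD553, 4.58-fold and 3.85-fold in Lv3NC, and 1.80-fold and 2.97-fold in Blank. Strands of this cluster thus did not keep a fixed ratio across libraries. miR-99b-5p exceeded miR-125a-5p 3.30-fold and 2.50-fold in KD553 and 4.68-fold and 5.13-fold in Lv3NC, without overlap (exact permutation p = 0.33, two-sided). This ratio was 5.45 and 2.81 in OV55666, 8.48 and 4.64 in Lv5NC, and 4.78 and 4.97 in Blank. The other pairs compared overlapped.

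The miR-125b clusters gave 8 further strands, again both arms of each miRNA, of which 7 were tested, let-7c-3p being under the filter. limma called 0 of the 7 in each comparison. In OV55666 against Lv5NC 6 had higher and 1 lower values (median 0.14), and in KD553 against Lv3NC 5 had higher and 2 lower values (median 0.17). Over all 444 tested miRNAs, 204 had higher and 240 lower values in the former comparison. In the latter 162 had higher and 275 lower values. Against Blank, 6 of the 7 had lower values in Lv5NC (median -0.58) and 6 of the 7 in Lv3NC (median -0.69). The medians were -0.22 and -0.18 over the tested known miRNAs, and 0.14 and -0.08 over all tested miRNAs. Of all 444, 198 had lower values in Lv5NC and 232 in Lv3NC. miR-99a-5p, a guide of one of these clusters, averaged 5585 ± 1460 CPM in Lv3NC and 14034 ± 5698 CPM in Blank (log2 fold change -1.29, SE 0.52, adjusted p = 0.759 by limma), whereas miR-125b-5p had the higher value in Lv3NC.

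The ratio of miR-125b-5p to miR-99a-5p was 1.07 and 1.10 in OV55666, 1.67 and 2.10 in Lv5NC, 1.78 and 1.66 in KD553, 2.71 and 2.10 in Lv3NC, and 0.722 and 0.513 in Blank. Both Blank libraries thus lay below all 8 other libraries, and the OV55666 libraries below the other 6. This ratio was singled out after its values were seen, so that the contrast is a description. For miR-100-5p, a guide of the other cluster, the ratio of miR-125b-5p to it was 0.682 and 0.899 in OV55666, 1.06 and 2.24 in Lv5NC, 2.12 and 1.25 in KD553, 1.42 and 1.04 in Lv3NC, and 1.02 and 0.686 in Blank. OV55666 lay below Lv5NC here too, but overlapped Blank. miR-125b-5p is listed without its cluster and pools both, whereas miR-99a-5p and miR-100-5p each belong to a single cluster. These ratios therefore do not compare strands of the same transcript alone.

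**Figure D5:**
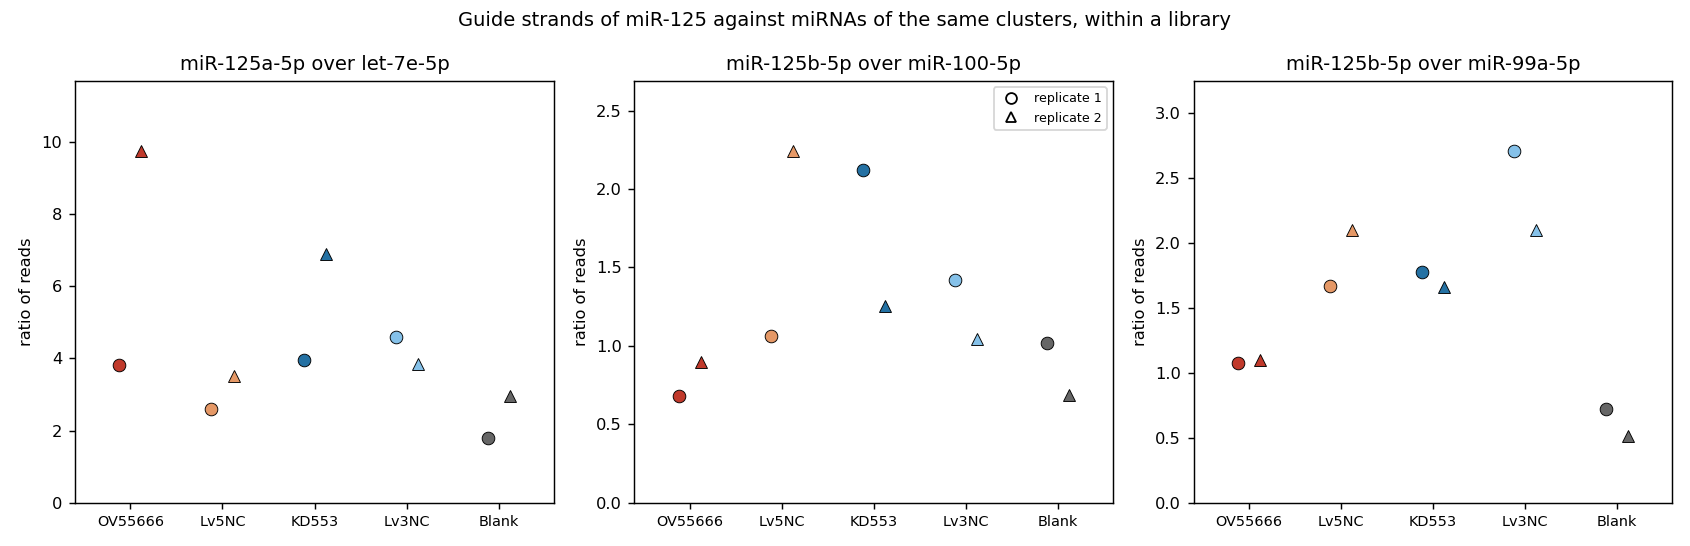
Ratio of reads of miR-125a-5p to let-7e-5p (left) and of miR-125b-5p to miR-100-5p (middle) and to miR-99a-5p (right) in each library, axes from 0. The ratio of miR-125b-5p to miR-99a-5p was 1.07 or more in every library of the other groups and 0.722 and 0.513 in Blank.

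Between libraries of the same group the guides varied about as much as other abundant miRNAs. The within-group SD of log2 values was 0.42 for miR-125a-5p and 0.56 for miR-125b-5p, against a median of 0.47 over 60 known miRNAs of at least 1000 CPM. It was 0.63 for miR-125a-3p and 0.90 for miR-125b-3p, against a median of 0.61 over all tested known miRNAs. From the lowest to the highest library, miR-125b-3p spanned 2.63 log2 units and the other members 1.60 to 1.76.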

How the data were processed

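Small RNA reads of 10 libraries (5 groups of 2) were taken from 1 deposited table of 2233 identifiers. Its 10 count columns give, per the file headers, the authors' read count of each identifier, in whole numbers. Which aligner, annotation and genome build made them is not given in the sources used here. As 11323 of 22330 cells hold a missing mark, the unit was recorded as other; no count is 0, the smallest is 1, and a missing cell was taken as 0. Also deposited were 10 TPM columns, not used here, of which 2 carry 1 name. Libraries were matched to columns by title; for KD553 the descriptions give other column numbers, so the replicate number there is that of the title.

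Counts of known and predicted miRNAs were scaled to CPM with TMM factors (30% and 5% trims; 0.796 to 1.16). The 444 miRNAs with 5 CPM in at least 2 libraries entered 1 fit of log2(CPM + 1) on 5 group means (limma 3.58.1, trend and robust moderation; statmod 1.5.0; R 4.3.3). Tests were two-sided, with Benjamini-Hochberg adjustment over all tested miRNAs and a threshold of 0.05. The plan named a count model for plain count tables only; given the missing marks, limma was used. Single ratios were compared by exact permutation. The fit was also run on simulated data with added differences. Its rate of recovery is not reported here, so a member that was not called is not shown to be unchanged. Named miRNAs are the members, strands of the same clusters, and the 5 most and 3 least alike to miR-125a-5p (mean of at least 50 CPM); miRNAs sharing their seed were not analysed here. Members, lists and tests were chosen with earlier results of these data known. Alternatives are given in the closing section.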

Additional observations from a re-analysis of the deposited data

How the results depend on the processing

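None of the 420 member values recomputed under the alternatives (4 members, 5 comparisons) passed the threshold, and the lowest adjusted p by limma was 0.272, for miR-125a-5p in OV55666 against Lv5NC with a replicate block. 28 of the 420 changed sign, 18 of these when a library was left out. By setting, the values that changed sign were 0.51 (miR-125b-3p, OV55666 against Lv5NC) and -0.18 (miR-125a-3p, Lv5NC against Blank) with the RF share as covariate, 0.068 (miR-125a-5p, KD553 against Lv3NC) without TMM, -0.035 and -0.24 (miR-125b-5p and miR-125a-3p, Lv5NC against Blank) with scaling to all reads, and 0.0019 (miR-125a-5p, Lv5NC against Blank) with known miRNAs only. For the difference between the effects, miR-125a-3p was -0.18 with median-of-ratios scaling, -0.34 without TMM, -0.060 with only the groups compared and -0.058 with the RF covariate. With each library left out in turn, where a lone library is assumed to vary like the other groups, the ranges that cross 0 were -1.40 to 0.47 (miR-125a-3p, OV55666 against Lv5NC). In KD553 against Lv3NC they were -0.28 to 0.18 (miR-125a-5p), -0.71 to 1.75 (miR-125b-3p) and -0.62 to 0.22 (miR-125b-5p). In Lv5NC against Blank they were -0.65 to 0.17 (miR-125a-5p), -0.25 to 1.17 (miR-125b-5p) and -0.0040 to 0.45 (miR-125a-3p), in Lv3NC against Blank -0.50 to 0.0091 (miR-125a-3p), and for the difference -0.87 to 0.87 (miR-125a-3p) and -1.36 to 0.19 (miR-125b-5p). Ranges that kept their sign but moved the value by over 1.5 times were, beside those of miR-125b-5p in OV55666 against Lv5NC and of miR-125b-3p in Lv3NC against Blank given earlier, -0.83 to -0.048 (miR-125a-3p, KD553 against Lv3NC), -2.44 to -0.042 (miR-125b-3p, difference), -1.10 to -0.40 (miR-125b-3p, OV55666 against Lv5NC), -0.52 to -0.16 (miR-125b-3p, Lv5NC against Blank), 0.24 to 1.01 (miR-125a-5p, Lv3NC against Blank) and 0.75 to 1.46 (miR-125a-5p, difference). With the RF covariate, miR-125b-3p in Lv5NC against Blank was -1.69. Scaling to all reads moved the median of all miRNAs by -0.50 in Lv5NC and by -0.44 in Lv3NC against Blank, by -0.36 in KD553 against Lv3NC and by 0.15 in OV55666 against Lv5NC. The cause of these changes was not tested.

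Over all miRNAs, the number called in OV55666 against Lv5NC was 1, 0 with voom weights and 1 to 3 with a library left out (2 without OV55666 replicate 1, 3 without Lv5NC replicate 2). In KD553 against Lv3NC it was 0, 1 with a pseudocount of 5, with no filter, with scaling to all reads or with the replicate block, and 0 to 13 with a library left out (13 without KD553 replicate 1). In Lv5NC against Blank it was 0, 1 with scaling to all reads and 0 to 2 with a library left out (2 without Lv5NC replicate 2). In Lv3NC against Blank it was 1, 2 with a pseudocount of 5 or no filter and 1 to 2 with a library left out (2 without Blank replicate 1). For the difference it was 1, 0 with voom weights and 1 to 4 with a library left out (2 without OV55666 replicate 1, 3 without Lv5NC replicate 2, 4 without KD553 replicate 1). The labels do not say that equal replicate numbers mark a shared batch. Deviations of same-numbered libraries correlated at 0.14 to 0.30 across miRNAs in the 4 comparisons of 2 groups. The replicate block changed no call of a member. With it, miR-125a-5p in OV55666 against Lv5NC had an SE of 0.38 and an unadjusted p of 0.0241 by limma, against 0.45 and 0.0485 without it. The lowest depth behind a member value was 123 reads.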

Other observations

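In each of the 5 groups the library labelled replicate 2 had more miR-125a-5p than the one labelled replicate 1, by 0.57 log2 units in OV55666, 0.58 in Lv5NC, 0.36 in KD553, 0.46 in Lv3NC and 0.87 in Blank. The ratio of the 5p to the 3p arm was also higher in replicate 2 in all 5 groups, both for miR-125a and for miR-125b. For miR-125a this ratio has miR-125a-5p as its numerator, so it is not a separate observation. miR-125b-5p had no such order, being higher in replicate 1 in OV55666 and KD553 and in replicate 2 in the other groups. Whether the numbers mark anything shared between libraries is not given in the labels. This pattern was noticed after the values were seen and was not tested. How many of the 444 tested miRNAs keep the same order in all 5 groups was not counted. The pattern is therefore not shown to be particular to this family.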
